A study of Homo sapiens with 3 samples.

Results

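The genes described here are the protein-coding neighbours of TBX3 and SRRM4 on the long arm of human chromosome 12, from RBM19 to SPPL3. The list holds 40 genes, taken by position, with earlier results of these data known. It leaves out TBX3 and SRRM4 themselves and a few other protein-coding genes of the interval, among them TBX5, BICDL1, RPLP0 and COX6A1. Of these 40 genes, 39 had a row of their own, and SPRING1 was not analysed here. They are 39 of 27024 counted genes, of which 19142 are protein-coding. The interval spans chr12:114254543-121342161 in GRCh37, which is 7.09 Mb.

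RNA-seq was measured in 3 libraries of 22Rv1 cells, an established human prostate carcinoma cell line, with the genotype WT and no treatment, grown in RPMI1640 with FBS. The study asked what a prostate cancer risk enhancer close to TBX3 does in these cells, and WT cells carry that enhancer intact. The WT samples are called control clones in one place and biological replicates in another, so the SD over the 3 libraries may describe clones or cultures, and it is not known which. All 3 libraries belong to 1 group, so the values below describe the WT state of the neighbourhood and hold no comparison between conditions.

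An enhancer can contact a promoter far away on the same chromosome and leave genes that lie in between out of the contact. TBX3, a T-box transcriptional repressor, starts 27.6 kb away from the middle of that enhancer. SRRM4, a splicing regulator of neural microexons, starts at 4.325 Mb. Most of the genes listed here lie between those points or shortly beyond SRRM4. They are not one pathway. They include general machinery (the RFC5 subunit of the replication clamp loader, the SRSF9 splicing factor, the DYNLL1 dynein light chain), regulators of signalling (PEBP1, KSR2, PRKAB1) and genes better known from nerve cells (NOS1, KSR2, MSI1 and CABP1).

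The depth was between 35675670 and 38629080 reads on counted genes per library, recovered from the deposited normalized counts. A normalized count is the number of reads on a gene divided by 1 size factor per library, and CPM is the number of reads scaled to the size of the library. The prostate luminal markers KRT8, KRT18, HOXB13, FOLH1, KLK2 and KLK3 each reached 1 CPM in all 3 libraries, with mean normalized counts from 341 for KLK3 to 25161 for KRT8. The basal markers KRT5 and TP63 were listed at 0 reads in all 3 libraries, PTPRC of leukocytes had at most 1 read in a library, and of the fibroblast collagens COL1A2 had at most 1 read while COL1A1 had 261 ± 17.2 normalized counts (SD, n = 3).

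The DNA at the start of some of these genes is given below. CG dinucleotides, the sites of DNA methylation in human cells, are frequent in the promoters of broadly used genes and sparse in many tissue-restricted ones. The stretches below are reference sequence from GRCh37 in lower case with each CG in capitals. The first and second are the whole gaps between the spans of divergent gene pairs, and the others are the 100 bases just before the start of a gene. They were chosen because they hold the shortest gaps between divergent members that do not overlap, and the starts of an abundant gene (MLEC) and of its neighbour with few reads (CABP1).
VSIG10 to PEBP1, chr12:118573832-118573928, plus strand: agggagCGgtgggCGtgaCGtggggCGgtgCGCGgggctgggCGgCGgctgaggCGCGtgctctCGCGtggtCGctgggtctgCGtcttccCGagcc
TRIAP1 to GATC, chr12:120884188-120884246, plus strand: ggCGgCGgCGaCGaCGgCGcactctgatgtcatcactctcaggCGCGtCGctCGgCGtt
MLEC, chr12:121124852-121124951, plus strand: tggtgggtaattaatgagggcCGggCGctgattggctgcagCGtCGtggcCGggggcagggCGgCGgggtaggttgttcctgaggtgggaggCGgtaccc
CABP1, chr12:121078329-121078428, plus strand: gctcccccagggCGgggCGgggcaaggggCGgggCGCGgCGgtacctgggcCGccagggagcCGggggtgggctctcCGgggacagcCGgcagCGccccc
The gap between VSIG10 and PEBP1 holds 15 CG dinucleotides in 97 bases, and the gap between TRIAP1 and GATC holds 11 in 59 bases. The stretch before MLEC holds 8 and that before CABP1 holds 11. CABP1 therefore has more CG dinucleotides in this stretch than MLEC, although its level was far lower, as described below. Over the wider window of 300 bases used later, the counts were nearly equal, at 32 for CABP1 and 31 for MLEC.

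Most of the neighbourhood was transcribed in WT cells. Of the 39 genes, 33 (84.6%) reached 1 CPM in all 3 libraries, against 63.8% of the 19142 protein-coding genes. On the rest of chromosome 12, 625 of 958 protein-coding genes (65.2%) did so. The 6 genes that did not were NOS1, CCDC60, TMEM233, SIRT4, PLA2G1B and CABP1. These counts are a description, since genes are not replicates and neighbours share a chromosomal region. Together they took 0.464% to 0.473% of each library, and the 5 with the highest mean count, namely MLEC, PEBP1, GCN1, SUDS3 and DYNLL1, held between 50.6% and 51.1% of these in each library.

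**Figure D1:**
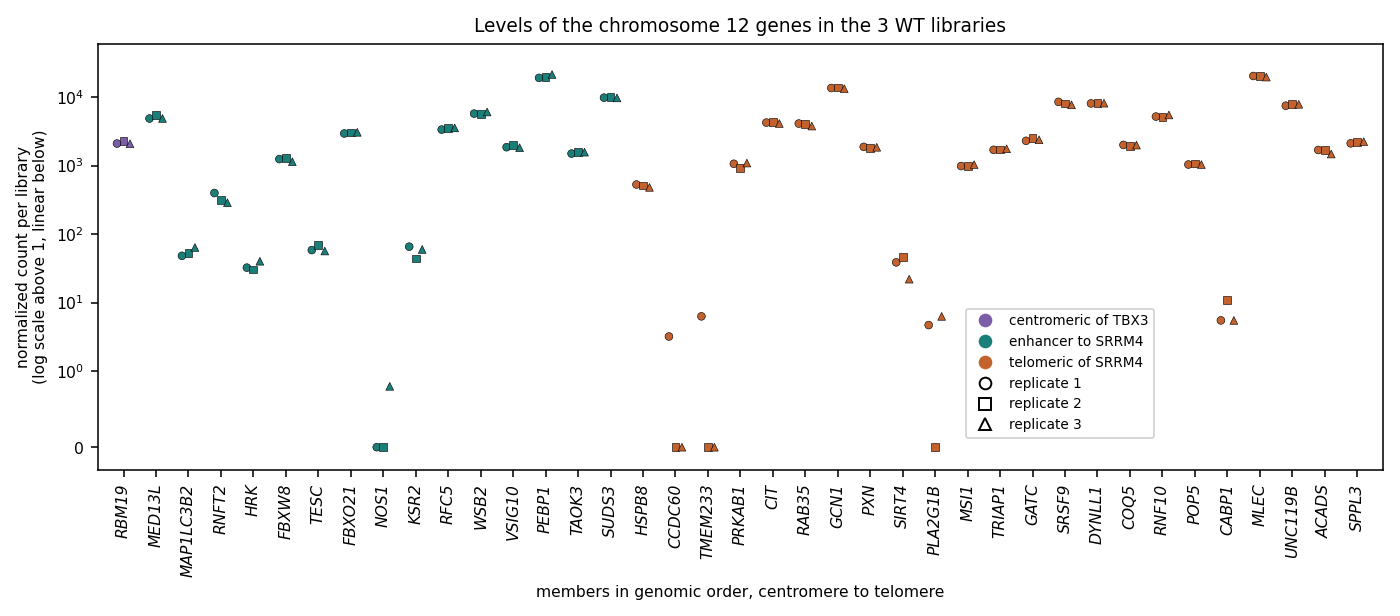
Normalized count of each of 39 genes in each of the 3 WT libraries, in genomic order from centromere to telomere. The vertical axis is logarithmic above 1 and linear below it, colours give the stretch and marker shapes the replicate. Most genes lie above 1000 normalized counts. TESC, HRK, KSR2, MAP1LC3B2, SIRT4, PLA2G1B and CABP1 lie below 100, and NOS1, CCDC60 and TMEM233 are at 0 in 2 of 3 libraries.

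To compare levels between genes, the normalized count was divided by the length of the canonical transcript in kb. On this scale the median of the 39 genes was 506 normalized counts per kb, against 97.9 over all protein-coding genes and 131 over the other protein-coding genes of chromosome 12. Among genes at 1 CPM or more, the median was 531 per kb for the 33 members and 332 per kb for protein-coding genes. Of the 39 genes, 28 lay above the median protein-coding gene and 13 lay in its highest 10%. With exons of all transcripts merged into 1 length, the median of the 39 genes fell to 325 per kb, but 28 genes were still above the median of protein-coding genes. The level of 17 of the 39 genes moved by more than 1.5 times with merged exons or with the longest transcript, so an order between genes holds for canonical transcripts unless stated otherwise.

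The 5 highest genes per kb were PEBP1, DYNLL1, SRSF9, MLEC and SUDS3. PEBP1, an inhibitor of growth factor kinase signalling, had 19116.4, 19952.0 and 21420.0 normalized counts in replicates 1, 2 and 3. Its level per kb was 14090 ± 815 (SD, n = 3), above that of 98.97% of protein-coding genes. DYNLL1, a light chain of the dynein motor that also dimerises many other proteins, had 8099.7, 8131.6 and 8175.8 normalized counts, or 12271 ± 57.6 per kb. The latter value depends on the length taken, since it was 2776 per kb with merged exons and 5913 with the longest transcript. The libraries of PEBP1 and DYNLL1 did not overlap on the scale per kb, so the order between them held in each library.

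SRSF9, a serine and arginine rich splicing factor, had 8535.8, 8063.9 and 7720.7 normalized counts, and 7037 ± 355 per kb (2049 with merged exons). MLEC encodes malectin, a lectin of the endoplasmic reticulum that binds newly made glycoproteins, and had the highest mean count of all the genes, 20200 ± 492, with 20374.9, 20581.6 and 19644.7 in the 3 libraries, a range that overlapped that of PEBP1. Its transcript is long, which placed it at 3186 ± 77.6 per kb, behind DYNLL1 and SRSF9 with canonical transcripts but ahead of both with merged exons (3138 per kb). SUDS3, a subunit of the SIN3 histone deacetylase complex and the last gene before SRRM4, had 9830.8, 10091.5 and 9751.1 normalized counts and 2094 ± 37.7 per kb. SUDS3 overlapped in range with the next gene in the order, WSB2 (2037 ± 80.3 per kb). For scale, TBX3 had 14199 ± 98.7 normalized counts (3000 ± 20.9 per kb) and SRRM4 10567 ± 509 (1253 ± 60.4 per kb). Per kb, 4 of the 39 genes were higher than TBX3 and 13 were higher than SRRM4.

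At the other end, NOS1, CCDC60, TMEM233, KSR2 and CABP1 were the 5 lowest genes per kb. NOS1, the neuronal nitric oxide synthase, had 0, 0 and 1 reads in replicates 1, 2 and 3, a sum with an exact 95% Poisson interval from 0.03 to 5.57 reads. CCDC60, a coiled-coil protein, had 4, 0 and 0 reads (interval of the sum 1.09 to 10.2), and TMEM233, a small membrane protein, had 8, 0 and 0 reads (3.45 to 15.8). These neighbouring genes both had all their reads in replicate 1. These intervals are two-sided and cover counting error only.

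KSR2, a scaffold of MAP kinase signalling, passed 1 CPM in all 3 libraries with 65.6, 44 and 59.8 normalized counts, but its transcript is the longest of the set and its level was 3.18 ± 0.629 per kb. CABP1, a calcium sensor known from neurons and the retina, had 7, 13 and 7 reads (interval of the sum 17.8 to 39.3). PLA2G1B, a secreted phospholipase best known from the pancreas, had 6, 0 and 8 reads (7.65 to 23.5). SIRT4, a mitochondrial sirtuin, had 49, 55 and 28 reads and missed the threshold of 1 CPM in replicate 3 alone, at 0.725 CPM against 1.28 and 1.54. In RNA from a whole culture, a low level in all cells and a higher level in a small share of the cells cannot be told apart.

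In the order of levels per kb there are 38 pairs of neighbours, and in 16 of them the libraries of the higher and the lower gene overlapped. Such ties included SPPL3, RBM19, MED13L and FBXO21, which lay between 506 and 531 per kb, and MAP1LC3B2, TESC and RNFT2, which lay between 58.1 and 67.0 per kb. With 3 libraries the smallest p that a two-sided exact paired test can give is 0.25, so no test was made between genes.

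The function groups hold 1 to 7 genes each, and their counts at 1 CPM stand beside the 63.8% of protein-coding genes that passed, from which so few genes do not set a group apart. The genes of transcription, RNA and translation passed 1 CPM in 7 of 7 cases, with a median of 968 per kb. Besides SRSF9 and SUDS3 they hold GCN1, which activates the stress kinase GCN2 at stalled ribosomes, at 1563 ± 27.7 per kb. POP5, a protein of the tRNA-processing enzyme RNase P, had 968 ± 21.2 per kb, RBM19, an RNA-binding protein of ribosome assembly, had 520 ± 24.2, and MED13L, of the kinase module of Mediator, had 514 ± 34.4. MSI1, an RNA-binding protein of neural stem cells, was the lowest of this group at 338 ± 10.8 per kb, with 985.2, 975.7 and 1035.3 normalized counts.

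The genes of ubiquitin ligases, autophagy and protein folding passed in 7 of 7 cases but at a lower median of 273 per kb. WSB2, an adaptor of a ubiquitin ligase, and RNF10, a RING ligase, had 2037 ± 80.3 and 1385 ± 49.3 per kb. The F-box protein FBXO21 had 506 ± 10.9 and FBXW8, an F-box partner of the cullin CUL7, 252 ± 15.1. HSPB8, a small heat shock protein and the first gene of the list beyond SRRM4, had 530.1, 512.0 and 481.8 normalized counts, or 273 ± 13.1 per kb. RNFT2, a RING finger membrane protein, had 398.2, 313.1 and 287.4 normalized counts, highest in replicate 1.

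Kinases and their regulators also passed in 5 of 5 cases, with a median of 461 per kb, set by PRKAB1, the beta subunit of the energy sensor AMPK. PRKAB1 had 1065.0, 914.8 and 1090.4 normalized counts, lower in replicate 2. CIT, a kinase of cytokinesis, had 483 ± 9.60 per kb, and TAOK3, a kinase of the STE20 family, 357 ± 10.5. Traffic, cytoskeleton and adhesion genes passed in 4 of 4 cases with a median of 1581 per kb. Besides DYNLL1 they were UNC119B, which carries lipid-modified proteins to cilia (1771 ± 51.5), RAB35, a GTPase of endosomal recycling (1391 ± 59.3), and the focal adhesion scaffold PXN (353 ± 8.86).

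Among mitochondrial genes 3 of 4 passed, close to the 63.8% of protein-coding genes. COQ5, a methyltransferase of coenzyme Q synthesis, had 1311 ± 30.9 per kb, ACADS, which oxidises short-chain fatty acids, 875 ± 69.3, and GATC, of the enzyme that makes mitochondrial glutaminyl-tRNA, 566 ± 23.3. RFC5, the only gene of DNA replication, had 1658 ± 53.7 per kb. In the group of the endoplasmic reticulum and Golgi, MLEC and SPPL3, an intramembrane protease that releases Golgi glycosyltransferases, both passed, and SPPL3 had 531 ± 16.2 per kb.

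The cell death pair was uneven. TRIAP1, a p53-regulated survival protein of mitochondria, had 1702.6, 1715.3 and 1762.7 normalized counts and 1500 ± 27.5 per kb, while HRK, a BH3-only protein that promotes apoptosis, had 32.4, 30.5 and 40.2 normalized counts and 5.94 ± 0.888 per kb. The group of calcium, nitric oxide and phospholipid genes was low. Only TESC, a calcium-binding partner of a sodium and proton exchanger, passed 1 CPM among its 4 genes, at 62.5 ± 7.41 per kb, and the median of the group was 5.62 per kb. Of the 4 genes better known from nerve cells, MSI1 and KSR2 passed 1 CPM and NOS1 and CABP1 did not. Among the remaining genes the membrane protein VSIG10 passed, at 379 ± 18.7 per kb, and CCDC60 and TMEM233 did not.

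The genes differ in how they lie along the chromosome. RBM19 was the only listed gene on the centromeric side of TBX3, 0.69 Mb from the enhancer. Between the enhancer and SRRM4 lay 15 genes with a row, over 2.46 Mb from MED13L to SUDS3, of which 14 passed 1 CPM, with a median of 357 per kb and a median gene length of 60.6 kb. Beyond SRRM4 lay 23 genes over 1.73 Mb, of which 18 passed, with a median of 566 per kb and a median gene length of 27.8 kb.

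**Figure D2:**
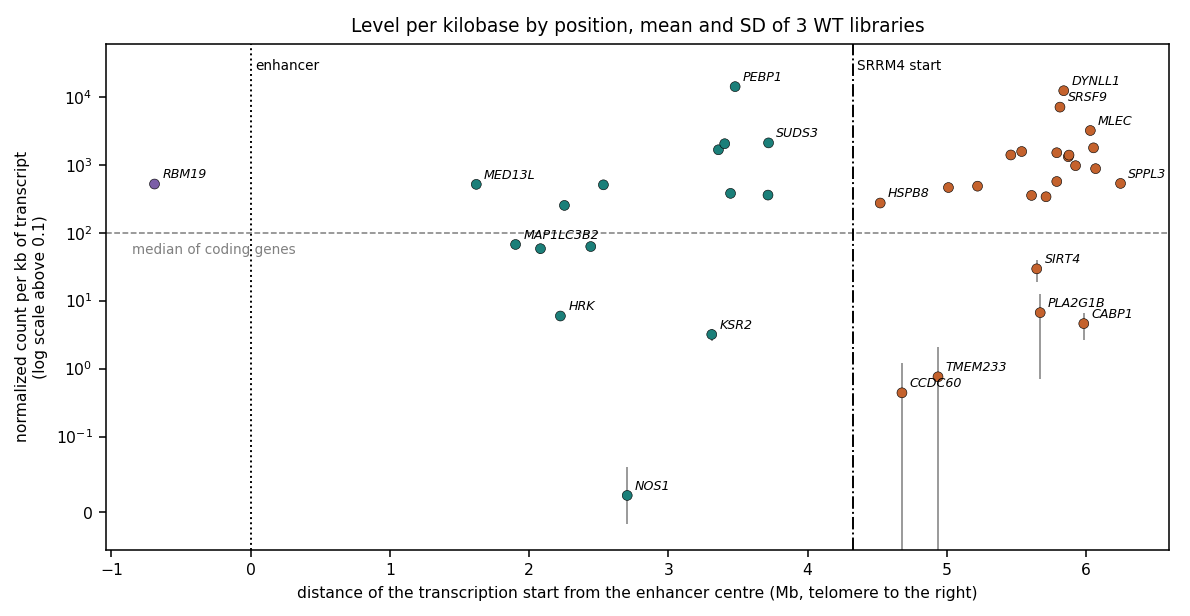
Level of 39 genes, in normalized counts per kb of canonical transcript (logarithmic above 0.1), against the distance of the transcription start from the enhancer centre in Mb. Points are means and bars the SD of 3 WT libraries, the dashed line is the median of protein-coding genes and the vertical lines mark the enhancer and the start of SRRM4. High and low genes lie on both sides of SRRM4, from PEBP1 at 14090 per kb to NOS1 at 0.022 per kb on the nearer side.

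The plot of level per kb by position was read in stretches chosen after their values were seen, and levels varied widely within each. The first stretch, from MED13L to KSR2, covered 2011 kb with 9 measured genes, a median of 62.5 per kb and 3 genes above the median protein-coding gene (MED13L, FBXW8 and FBXO21). The next stretch, from RFC5 to SUDS3, covered 404 kb with 6 genes, all above that median, at 357 to 14090 per kb. RFC5 was 522-fold higher per kb than KSR2, the gene before it, and 432 to 682-fold higher in single libraries. A larger step lay within the first stretch, since FBXO21 had 506 per kb and its neighbour NOS1 only 1 read in all. HSPB8 had 273 per kb while CCDC60, the next gene, had reads in replicate 1 alone, where HSPB8 was 216-fold higher. Beyond SRRM4, the stretch from HSPB8 to TMEM233 covered 471.5 kb with 3 genes, of which HSPB8 alone passed 1 CPM.

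A dense stretch followed further on. From TRIAP1 to POP5, 7 genes in 137 kb all passed, with levels of 566 to 12271 per kb. CABP1 then stood between abundant neighbours. MLEC, 19824 bp beyond the end of CABP1, was 694-fold higher per kb on average, and 471 to 933-fold higher in single libraries. The mean difference was 2475-fold with merged exons. From MLEC to SPPL3, 4 genes in 217 kb all passed, at 531 to 3186 per kb.

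Across the 39 genes, Spearman's rho between the distance from the enhancer and the normalized count was 0.233, and 0.369 with the level per kb. Between gene length and level per kb rho was -0.375, and between the distance from SRRM4 and level per kb it was -0.05. Both genes and positions within 1 chromosome are linked, so these values describe this set and carry no p. Genes next to each other among the 39 differed by a median of 2.29 on the log2 scale of levels per kb over 38 pairs. Genes outside the 39 lie inside some of these pairs, such as TBX5 and TBX3 between RBM19 and MED13L. All 741 pairs of the genes differed by a median of 2.95. By strand, the medians were 513 per kb for 18 genes on the plus strand and 506 per kb for 21 genes on the minus strand.

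Several neighbours lie back to back or overlap. VSIG10 and PEBP1 are transcribed away from each other across the gap of 97 bases printed above, and PEBP1 was 37.2-fold higher per kb (36.0, 34.9 and 41.0-fold in replicates 1, 2 and 3, and 58.7-fold on average with merged exons). The canonical start of VSIG10 lies 32113 bp from that of PEBP1, so the short gap belongs to the outermost annotated start of VSIG10. TRIAP1 and GATC start 60 bp apart on opposite strands, and TRIAP1 was 2.65-fold higher per kb (2.72, 2.53 and 2.72-fold). TAOK3 and SUDS3 start 3648 bp apart, and SUDS3 was 5.86-fold higher per kb (6.03, 5.86 and 5.70-fold, and 12.1-fold with merged exons). Of these, TRIAP1 and GATC alone have canonical starts within 100 bases of each other.

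Other pairs overlap on opposite strands, and the strand setting of the counting is not given in the sources used here, so reads in the shared part could belong to either gene. RFC5 and WSB2 converge and share 186 exonic bases, and WSB2 was 1.23-fold higher per kb. GATC and SRSF9 share 1725 exonic bases at their ends, and SRSF9 was 12.4-fold higher (3.77-fold with merged exons). SRSF9 and DYNLL1 overlap by 26097 bp of gene span but share no exonic base, and DYNLL1 was 1.74-fold higher. COQ5 and RNF10 share 79 exonic bases and were at nearly the same level, with RNF10 1.06-fold higher.

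The 300 bases around each canonical start, 250 before it and 50 from it, were compared with the same window of 19061 protein-coding genes. The 33 genes at 1 CPM or more held a median of 31 CG dinucleotides, from 10 in RNF10 to 53 in MSI1, against a median of 28 over protein-coding genes that passed and 7 over those that did not. Of the 33, 27 were above the median of 23 over all protein-coding genes. The matching share among protein-coding genes that passed was not computed. The 6 genes below 1 CPM held a median of 14.5, from 1 in PLA2G1B to 32 in CABP1.

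The plot of CG content against level shows that 27 of the 28 genes above the median of 23 CG dinucleotides passed 1 CPM, with CABP1 the exception. The matching share over all protein-coding genes was not computed, so this count does not set the members apart. Level varied among them, since TESC, with 42 CG dinucleotides, had 62.5 per kb and KSR2 had 3.18 per kb. Of all protein-coding genes at 1 CPM or more, 93.2% held at least 10 CG dinucleotides, as did 43.8% of the others. Across the 39 genes, Spearman's rho between CG count and level per kb was 0.286. The letters TATAAA, read on the strand of the gene, were found in the 50 bases before the start in 0 of the 40 genes and in 4.22% of protein-coding genes. The letters CCAAT or ATTGG, which are the same motif on either strand, were found in the 250 bases before the start in 13 of the 40 and in 34.4% of protein-coding genes. Such a match is a description of letters and not of a bound site.

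For 35 pairs of a gene of the list and a paralogue or complex partner elsewhere in the genome, with more than 3 reads on average on both sides, the ratio of levels per kb was taken within each library. The member was higher in 3 of 3 libraries for 17 pairs and lower in 3 of 3 for 17 pairs. For 1 pair, KSR2 and its paralogue KSR1, the direction was mixed with canonical transcripts. With merged exons or the longest transcript, 17 pairs were higher and 18 lower in 3 of 3 libraries, which left no pair mixed. Without a length they were 16 and 19. In 10 of the pairs of 1 direction with canonical transcripts, the direction turned with another transcript length or without a length. Those pairs are named below with it. In 24 pairs it did not. The size of the ratio moved by more than 1.5 times with merged exons or the longest transcript in 18 of the 35 pairs, and such values, as geometric means over the libraries, stand beside the ratios where the direction did not turn with that length.

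DYNLL1 was 9.88-fold ± 0.248 (SD, n = 3) higher per kb than DYNLL2 (2.23-fold with merged exons and 4.76-fold with the longest transcript), although without a length both were nearly equal in count and DYNLL2 was slightly higher. SUDS3 was 4.68-fold ± 0.141 higher than SIN3A, the scaffold of its complex (7.57-fold with merged exons). WSB2 was 2.90-fold ± 0.136 higher than WSB1, and UNC119B 2.81-fold ± 0.191 higher than UNC119 (8.75-fold with merged exons and 8.52-fold with the longest transcript). PXN was higher than both of its relatives, by 21.6-fold ± 3.54 over TGFB1I1 (44.9-fold with merged exons and 56.5-fold with the longest transcript) and 1.92-fold ± 0.107 over LPXN. SRSF9 was 2.01-fold ± 0.160 higher than SRSF1 per kb of canonical transcript, a direction that turned with merged exons and without a length.

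Other genes were lower than a relative or a binding partner. HRK was at 0.0126 of the level of BCL2L1, the survival protein that it binds (SD 0.0022). TESC was at 0.0575 of its relative CHP1 (0.036 with merged exons) and RNFT2 at 0.274 of RNFT1. SIRT4 was at 0.108 of SIRT3 and 0.187 of SIRT5 (0.196 and 0.432 with merged exons). FBXW8 was at 0.554 of CUL7, and TAOK3 at 0.843 of TAOK1 (0.47 with merged exons) and 0.359 of TAOK2. TRIAP1 was at 0.442 of PRELID1, the protein with which it moves phosphatidic acid. While NOS1 was almost without reads, NOS3, the endothelial enzyme, had 2814 ± 189 normalized counts, and NOS2 had at most 1 read in a library.

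MAP1LC3B2, an LC3 protein of autophagy, had 48.2, 52.5 and 63.8 normalized counts and was at 0.102 of the level of MAP1LC3B, 0.113 of MAP1LC3A and 0.0168 of GABARAP (the last pair 0.057 and 0.011 with merged exons). It matches MAP1LC3B over 90.2% of its transcript at 97.8% identity, so its 68 reads on average may hold reads from MAP1LC3B, which had 1746, or have lost reads that map to both. Its own level is therefore uncertain. Partial near-identical pseudogene copies also exist for PEBP1 and for the partners GABARAP, PRELID1, RNFT1, QRSL1 and SPPL2A. These copies had no row. How reads matching both a gene and its copy were treated is not known, so these levels and ratios carry a similar limit.

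Among subunits of shared complexes, RFC5 stood at 0.953 of RFC4, 0.622 of RFC2, 1.30-fold of RFC3 and 1.89-fold of RFC1, and the directions against RFC4 and RFC1 turned with another length or none. MED13L was 1.16-fold above its paralogue MED13, a direction that turned with merged exons, and was at 0.787 of CDK19 (0.283 with merged exons) and 0.573 of CCNC, directions that turned without a length. MED13L was 2.45-fold above CDK8 (1.14-fold with merged exons) and 1.78-fold above MED12 in the same Mediator module. GATC was 1.28-fold ± 0.162 above GATB (6.06-fold with merged exons and 3.53-fold with the longest transcript) and 2.18-fold ± 0.0436 above QRSL1, the other subunits of its enzyme. The 1725 exonic bases that GATC shares with SRSF9 could hold reads of either gene, so these ratios are uncertain beyond their SD.

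PRKAB1 was 1.35-fold above PRKAB2, which turned under each other choice of length, and MSI1 was at 0.571 of MSI2, which turned with merged exons. SPPL3 was 1.08-fold above SPPL2B and 1.56-fold above SPPL2A, the latter turning without a length. KSR2 was 1.66, 0.883 and 4.31-fold of KSR1 in replicates 1, 2 and 3, where KSR1 had 11.7 ± 6.28 normalized counts (3.63-fold with merged exons).

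The spread between the WT libraries was measured for each gene. The coefficient of variation, which is the SD over the mean of the 3 normalized counts, had a median of 3.94% over the 33 genes at 1 CPM or more, against 4.72% over all protein-coding genes that passed. It ran from 0.47% for DYNLL1 to 19.8% for KSR2. In 29 of the 33 genes it was larger than counting error alone would give. The same share over all genes was not computed. Counted genes at large also exceeded counting error. Their median ratio was 1.53 at 10 to 100 reads, 1.59 at 100 to 1000, 1.88 at 1000 to 10000 and 3.68 above 10000. For members in the same ranges, SIRT4 included, it was 1.21, 2.37, 2.25 and 3.08.

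**Figure D3:**
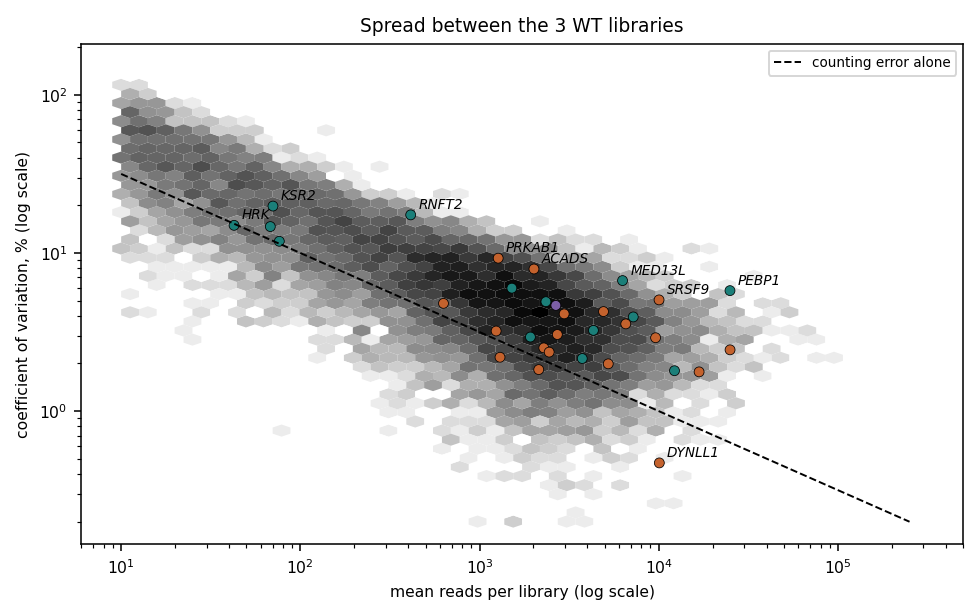
Coefficient of variation in % over 3 WT libraries against the mean reads per library, both logarithmic. Grey cells (darker for more genes) are counted genes averaging 10 reads or more, coloured points are the 33 genes at 1 CPM or more with colours for the stretch of chromosome, and the dashed line is counting error alone. PEBP1 at 5.78% and MED13L at 6.69% lie well above the line, and DYNLL1 at 0.47% lies below it.

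The plot of spread against reads places the genes among others in the same range of reads. Among genes of 10 to 100 reads, the median was 15.0% for 5 members, SIRT4 among them, and 26.5% for 2640 genes. Between 100 and 1000 reads it was higher for the 2 members, RNFT2 and HSPB8, at 11.1% against 7.84% for 4434 genes. Among genes of 1000 to 10000 reads, the median was 3.24% for 21 members and 3.67% for 6965 genes, and above 10000 reads it was 2.12% for 6 members and 2.76% for 607 genes. These ranges are wide, so depth can still differ within them. At 1000 to 10000 reads the members were lower in coefficient of variation but higher in its ratio to counting error (2.25 against 1.88). PEBP1 varied 9.14 times as much as counting error gives, highest in replicate 3, and MED13L 5.30 times, highest in replicate 2 (4874.7, 5472.7 and 4894.4 normalized counts). SRSF9 varied 5.06 times as much as counting error, highest in replicate 1. DYNLL1, whose span overlaps that of SRSF9, varied 0.472 times as much. RNFT2 at 17.4%, PRKAB1 at 9.27% and ACADS at 7.92% were the most variable genes with more than 100 reads on average.

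No library was high or low for the whole neighbourhood. Replicates 1, 2 and 3 held the highest value of 7, 14 and 12 of the 33 genes, and the lowest value of 11, 8 and 14.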

How the data were processed

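RNA-seq of 3 WT libraries of 22Rv1 cells was used. Per the paper's methods and the submitters' notes, alignment to GRCh37 used HISAT2, counting used HTSeq and scaling used DESeq2. What the authors deposited is a signal for each gene: the reads after division by the library's size factor, kept to 1 decimal. The GENCODE release of the counting, its strand setting and how it treated reads with several matches are not given in the sources used here.

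Whole reads were recovered from the steps between low values, and 100% of values came out whole within rounding. Rows under Ensembl identifiers numbered 29000, and 1976 rows that repeated the row above in all 3 libraries were merged with it. The members and all lists of markers, functions and partners were chosen with earlier results of these data known. The genes described in full are the 5 highest and 5 lowest per kb, those with a partner, an overlap or a near-identical copy, and those nearest to the enhancer and to SRRM4, and all other members are given briefly.

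Positions, canonical transcripts and promoter windows came from GENCODE 44 lifted to GRCh37. Near-identical copies were found with minimap2 2.31, and sequences were read with pysam 0.24.0. Calculations used Python 3.11.15 with numpy 2.4.6, pandas 2.3.3 and scipy 1.17.1, and figures matplotlib 3.10.9. The recovery of reads was tested on simulated data. With 1 group no test was made, and values are means with the SD over 3 libraries. Alternatives were edgeR 4.0.16 TMM library sizes, size factors re-estimated with DESeq2 1.42.0 under R 4.3.3, plain library totals, other minimum CPM, other pseudocounts, other transcript lengths and leaving out each library. No other library of the study was analysed here. Some markers of the cells are not reported here.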

Additional observations from a re-analysis of the deposited data

How the results depend on the processing

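No paired analysis was possible because the libraries form 1 group. Other library scalings were set to the same geometric mean as the original size factors, so only the weights between libraries could change. Under them the level of a member at 1 CPM or more moved by at most 0.145%, which this setting largely fixes in advance. The number of genes at 1 CPM was 33, and became 34 at 0.5 CPM, 29 at 5 CPM and 32, without HRK, with library totals that kept repeated rows. Without single libraries it was 33 to 34, and without replicate 3 SIRT4 passed. The background share was 47.6% over all counted genes. The median level per kb was 506 with canonical transcripts, 325 with merged exons and 487 with the longest transcript, and the 5 highest genes were the same 5 under each. The rank correlation between distance from the enhancer and level was 0.233, with 0.369 per kb and 0.201 without the members at or below 3 reads on average (n = 36). The median coefficient of variation was 3.94%, and 3.12% to 4.12% with 1 library left out.

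Log2 ratios to partners that turned direction did so through the length alone. With merged exons they were -1.24 for MED13L to MED13, 0.44 for RFC5 to RFC4, -0.99 for PRKAB1 to PRKAB2, 0.94 for MSI1 to MSI2 and -0.66 for SRSF9 to SRSF1. With the longest transcript the ratio of PRKAB1 to PRKAB2 was -0.43. Without a length they were 0.28 for MED13L to CDK19, 1.39 for MED13L to CCNC, -0.30 for RFC5 to RFC1, 0.55 for RFC5 to RFC4, -0.84 for PRKAB1 to PRKAB2, -1.21 for SRSF9 to SRSF1, -0.06 for DYNLL1 to DYNLL2 and -0.18 for SPPL3 to SPPL2A. Depth limits NOS1, CCDC60, TMEM233, PLA2G1B and CABP1 most, whose 3 libraries together held 27 reads or fewer per gene.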

Other observations

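BICDL1, an adaptor that links dynein to Rab6 vesicles, is annotated as protein-coding between CIT and RAB35 but is not on the list. It had 2864 ± 46.1 normalized counts (SD, n = 3), or 747 ± 12 per kb, which 15 of the 39 listed genes exceeded per kb.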
